A study of Mus musculus with 8 samples.

Results

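The genes described here supply cells with amino acids and one-carbon units, and many are known targets of the transcription factor Atf4. They comprise 9 regulators and stress genes around Atf4, 8 enzymes of serine synthesis and folate metabolism, 7 further amino acid enzymes, 8 amino acid carriers and 8 tRNA synthetases. The 40 genes are a list of mouse symbols, and each of the 40 matched a row by symbol among 55416 gene IDs. All 40 passed the filter on low counts that left 14063 genes for testing. The list was drawn up with results of these libraries in view, among them the lower Aldh1l2, Asns, Mthfd2, Psat1 and Shmt2 of irradiated organoids at day 4. The day 4 values, and every comparison with a day 4 group in it, are therefore given as a description without p-values. Irradiation at day 7 compares other libraries, and its adjusted p-values are given. They still draw on the day 4 libraries, because the fit of all 8 libraries estimates the spread from both days, and the spread was wider at day 4. Whether results of day 7 were also in view when the list was made is not recorded, so these p-values may not be independent of the choice of genes.

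RNA was sequenced from small intestinal organoids, which are cultures of intestinal epithelial cells embedded in a gel, grown from mice aged 4 to 8 weeks. The 4 groups, of 2 libraries each, were organoids irradiated with X-rays at 6 Gy and sampled at day 4, the same at day 7, and unirradiated controls of day 4 and of day 7. All 4 groups were of the C57BL/6 strain and carried Rosa26-rtTA Tg/Tg together with Col1A1-TetO-OSKM Tg/Tg, which places the reprogramming factors Oct4, Sox2, Klf4 and Myc under a drug-controlled activator expressed from the broadly active Rosa26 locus. The labels do not say whether that cassette was switched on, from which event the days were counted, or whether the libraries of a group came from separate cultures or animals. The p-values therefore measure only the spread between these libraries, which may be technical.

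Atf4 is the central transcription factor of the integrated stress response. Kinases that sense amino acid shortage, endoplasmic reticulum stress, heme shortage or viral RNA phosphorylate the initiation factor eIF2, which lowers protein synthesis in general and raises translation of the Atf4 mRNA, so the Atf4 transcript need not follow the protein. Atf4 pairs with C/EBP family partners on composite promoter elements of genes for amino acid import, amino acid synthesis and tRNA charging. Serine made by Phgdh, Psat1 and Psph, or taken up from the medium, donates a carbon unit to folate, and the mitochondrial branch of Shmt2, Mthfd2 and Mthfd1l exports it as formate for the purine and thymidylate synthesis of dividing cells such as those of the intestinal crypt.

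The core of that composite element, TGATGNAA on either strand, was looked for in promoter windows running from 250 bases before to 50 bases after each annotated gene start (RefSeq, GRCm38.p6). Windows were matched by symbol for 33 of the 40 genes, not for Aldh1l2, Cth, Slc7a5, Slc1a5, Eif4ebp1, Wars and Nars. The core was present for 12 of the 33 genes (36.4%), against 1219 of all 27025 genes with a window (4.51%). It was found for 9 of the 27 matched genes that were lower after irradiation at day 4, for 2 of the 3 that were higher and for 1 of the 3 that were not called. The E-box CACGTG, which reads the same on both strands, was present for 6 of the 33 genes (18.2%), against 8.09% of all genes; Nupr1, Aars, Iars and Tars held both motifs, with no shared bases. A match describes the letters only, and a window without one says nothing of Atf4 binding. Many listed genes are known Atf4 targets, so the choice of genes may itself raise the share with the core, which is a description only. The stretches below show the core in capitals, read 5′ to 3′ on the strand of the gene, for 3 genes that were lower at day 4 (Asns, Chac1 and Pycr1), for 2 that were higher (Slc7a11 and Got1), and for Gars, which was not called.
Asns (chr6:7693210-7693277, minus strand): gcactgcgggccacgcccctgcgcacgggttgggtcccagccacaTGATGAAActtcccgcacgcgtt
Chac1 (chr2:119351019-119351086, plus strand): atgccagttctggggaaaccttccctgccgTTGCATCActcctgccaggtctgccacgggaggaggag
Pycr1 (chr11:120643814-120643881, minus strand): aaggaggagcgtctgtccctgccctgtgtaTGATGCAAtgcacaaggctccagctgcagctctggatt
Slc7a11 (chr3:50443623-50443709, minus strand): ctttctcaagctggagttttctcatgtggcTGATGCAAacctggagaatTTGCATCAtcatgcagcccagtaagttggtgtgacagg
Got1 (chr19:43524670-43524737, minus strand): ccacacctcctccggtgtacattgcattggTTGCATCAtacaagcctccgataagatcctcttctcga
Gars (chr6:55037933-55038000, plus strand): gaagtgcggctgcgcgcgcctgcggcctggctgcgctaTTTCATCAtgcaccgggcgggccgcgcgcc
The Asns and Gars stretches end at the base before the gene start, those of Pycr1 and Got1 cover bases 133 to 66 and 132 to 65 before it, that of Slc7a11 covers bases 96 to 10 and holds the core once on each strand, and that of Chac1 covers bases 223 to 156. Core matches thus stood upstream both of genes called lower and of genes called higher at day 4. Whether the core bears on the direction was not tested.

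The libraries held 7541764 to 16054269 expected counts, so that 1 count was worth 0.0608 to 0.12 CPM, the unit of library-scaled counts (here with TMM factors) used to compare a gene between libraries. The lowest expected count of a listed gene in any library was 11.54, for Cebpb, and apart from Cebpb and Chac1 it was 30.54. The spread between the libraries of a group was wider at day 4, with a biological coefficient of variation of 0.173 in irradiated organoids and 0.136 in controls, than at day 7, with 0.041 in irradiated organoids and 0.047 in controls. Mitochondrial transcripts took 20.3% and 27.6% of counts in irradiated organoids at day 4, against 20.7% and 16.2% in controls, and 14% and 12.9% in irradiated organoids at day 7, against 16% and 16.1% in controls. The epithelial label fitted the markers: the summed level of 7 epithelial genes was 6812 and 5665 CPM after irradiation at day 4, against 3905 and 3906 CPM in controls, and 5115 and 5258 CPM after irradiation at day 7, against 3874 and 3849 CPM in controls. Of other cells, 9 mesenchymal markers summed to 5.165 to 22.27 CPM, 8 immune markers to 4.423 to 12.6 CPM and 5 endothelial markers, of which Cdh5 and Kdr were at 0 in all 8 libraries, to at most 5.3 CPM.

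**Figure D1:**
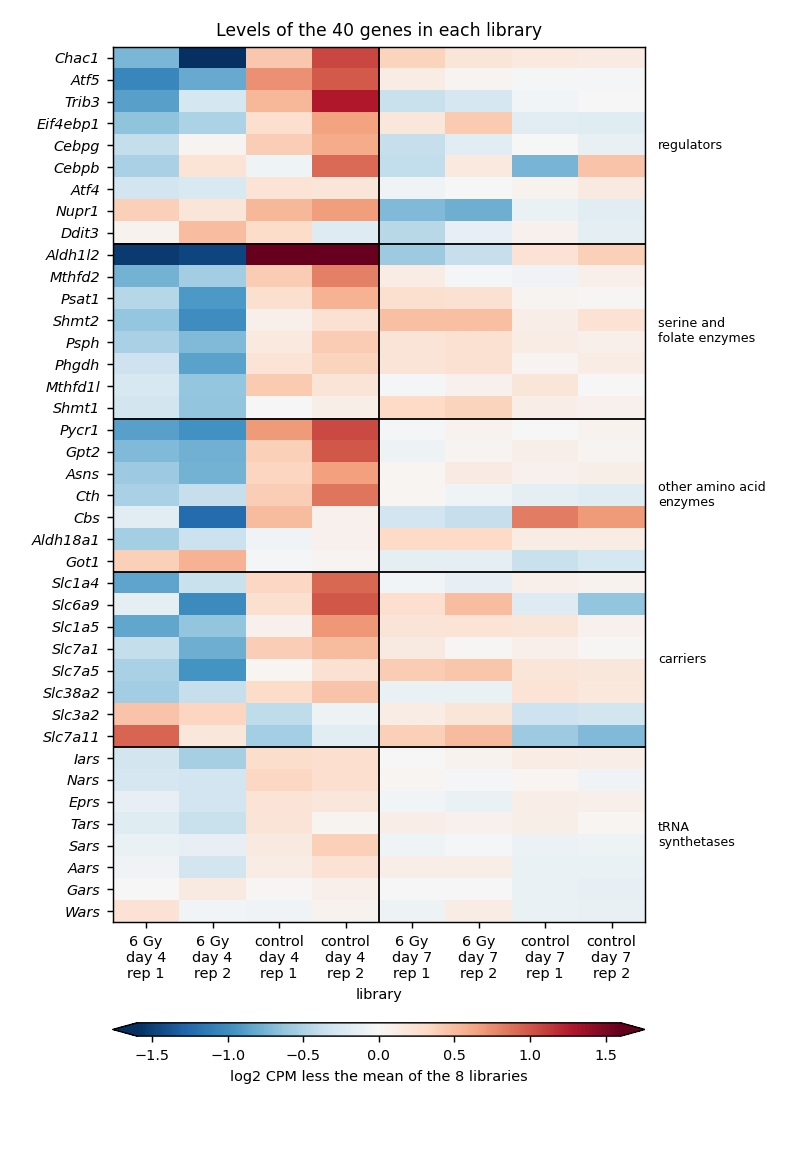
Level of each of the 40 genes (rows, grouped by role) in each of the 8 libraries (columns), as log2 CPM relative to the mean of the gene over all libraries; colours are cut at the ends of the scale. The 2 irradiated libraries of day 4 lie below the other 6 libraries for 27 of the 40 genes. The 13 exceptions are Ddit3, Trib3, Cebpb, Cebpg, Nupr1, Got1, Cbs, Slc7a11, Slc3a2, Slc6a9, Aars, Gars and Wars. The share of all tested genes with this order was not computed. Both irradiated libraries lie below both controls of day 4 for 33 of the 40 genes, beside 31.9% of all tested genes.

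At day 4 most of the 40 transcripts were lower in irradiated organoids than in controls, among them Atf4 and most of the listed enzymes and carriers. Of the 40 genes, 33 were called lower and 3, the cystine carrier Slc7a11, its partner chain Slc3a2 and the aspartate aminotransferase Got1, were called higher in the edgeR fit (Benjamini-Hochberg adjusted p under 0.05), while Ddit3, Cebpb, Gars and Wars were not called. Over all tested genes, 16.5% were called lower and 20% higher; since this comparison was in view when the list was made, the counts are a description only. The median log2 fold change of the 40 genes was -0.85, beside 0.00 over all tested genes, and 15 of them (37.5%) lay below -1, beside 4.38% of all tested genes. On the log2(TPM + 1) scale, where the median of all genes was shifted to -0.17, 29 of the 40 genes were called lower, and Slc7a11, Slc3a2 and Got1 kept positive values (0.61, 0.34 and 0.27) without a call in limma; over all genes that scale gave 1104 higher and 1732 lower, beside 2808 and 2322 in the edgeR fit. In TPM, which also corrects for gene length, the 40 genes summed to 1915.7 and 1461.4 after irradiation at day 4 and to 2569.8 and 3077.9 in controls. At day 7 the same sum was 2622.5 and 2665.0 TPM in irradiated organoids and 2423.8 and 2381.0 TPM in controls. In the controls of day 4, the level per length was highest for the synthetase Nars (259 ± 11.2 TPM; SD, n = 2), Nupr1 (237 ± 35.5 TPM) and Phgdh (227 ± 21.8 TPM), and lowest for Cebpb (2.83 ± 1.44 TPM).

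The cell make-up read from marker genes moved at day 4 as well. The 14 enterocyte markers, which mark absorptive cells, summed to 16630 and 26780 CPM after irradiation at day 4, against 5385 and 4873 CPM in controls, and to 7431 and 7423 CPM after irradiation at day 7, against 4701 and 4625 CPM in controls. The 15 markers of dividing cells summed to 1533 and 1245 CPM after irradiation at day 4, against 2763 and 2586 CPM in controls, and to 2213 and 2201 CPM after irradiation at day 7, against 2476 and 2448 CPM in controls. The 10 crypt base stem cell markers summed to 2165 and 2043 CPM after irradiation at day 4, against 3322 and 3241 CPM in controls, and to 3334 and 3241 CPM after irradiation at day 7, against 4721 and 4639 CPM in controls. At day 4 enterocyte markers were thus higher, and dividing and stem markers lower, in both irradiated libraries than in both controls. The 8 Paneth cell markers summed to 4065 and 6029 CPM after irradiation at day 4, against 1844 and 1132 CPM in controls, and to 1594 and 1587 CPM after irradiation at day 7, against 2168 and 2101 CPM in controls. In bulk RNA fewer cells of a type and less RNA per cell cannot be told apart, and the part of these marker shifts in the values of the 40 genes was not tested.

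Among the 9 regulators, 7 were lower at day 4, with a median log2 fold change of -0.65. Atf4 itself had 142 and 149 CPM in irradiated organoids, against 205 and 201 CPM in controls, a log2 fold change of -0.48 ± 0.08 (approximate SE, from the fold change and its F statistic, here and below). The groups did not overlap, and the step was smaller than that of most genes on the list. With 2 libraries per group such separation is common: at day 4 both irradiated libraries lay below both controls for 31.9% of all tested genes and above them for 33.4%. Chac1, which breaks down glutathione and is a common readout of Atf4 activity, had 2.79 and 1.52 CPM in irradiated organoids and 6.21 and 9.73 CPM in controls at day 4 (-1.89 ± 0.33), the largest log2 fold change among the regulators. Atf5, a related transcription factor also under translational control, had 13.7 and 16.2 CPM in irradiated organoids, against 47.0 and 55.8 CPM in controls (-1.78 ± 0.13). For Trib3, a pseudokinase that restrains Atf4, the values were 5.58 and 8.36 CPM after irradiation and 14.7 and 24.8 CPM in controls (-1.51 ± 0.27). All 3 genes had both irradiated libraries below both controls.

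Eif4ebp1, a repressor of cap-dependent translation, was lower too, at 14.5 and 16.0 CPM in irradiated organoids and 27.4 and 35.5 CPM in controls at day 4 (-1.05 ± 0.16). The C/EBP partner Cebpg had 51.1 and 68.5 CPM after irradiation, against 87.6 and 100.3 CPM in controls (-0.65 ± 0.14). Nupr1, a stress-induced chromatin protein, had 91.0 and 79.7 CPM in irradiated organoids, against 101 and 111 CPM in controls (-0.31 ± 0.09), a shallow step that was no longer called without the second irradiated or the second control library of day 4 (log2 fold change -0.22 and -0.24). Ddit3, which encodes the stress factor CHOP, was not called: it had 12.3 and 16.6 CPM in irradiated organoids, against 14.5 and 10.2 CPM in controls (0.24 ± 0.22). Cebpb, with 1.5 and 2.5 CPM after irradiation and 2.04 and 4.02 CPM in controls, was not called either (-0.62 ± 0.49). In both Ddit3 and Cebpb the libraries of the groups overlapped.

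At day 7, 1 of the 9 regulators was called in the fit of all 8 libraries. With the 4 libraries of day 7 alone, edgeR also called Atf4 and Cebpg lower (adjusted p = 0.0148 and 0.023) and Eif4ebp1 higher (adjusted p = 0.000656). Of all genes tested, that fit called 18.8% higher and 17.5% lower. The values that follow are from the fit of all 8 libraries. Nupr1 had 42.9 and 40.6 CPM in irradiated organoids, against 64.8 and 61.9 CPM in controls, a log2 fold change of -0.60 ± 0.10 (edgeR, adjusted p = 0.00709). The call was lost when any library of day 7 was left out (adjusted p from 0.0621 to 0.125). Atf4 had 169 and 175 CPM in irradiated organoids, against 183 and 195 CPM in controls (-0.14 ± 0.08, adjusted p = 0.284), so the irradiated libraries remained the lower ones without a call. Atf5 had 30.8 and 29.1 CPM after irradiation, against 27.8 and 27.8 CPM in controls (0.11 ± 0.13, adjusted p = 0.652), and Chac1 had 5.91 and 5.29 CPM after irradiation, against 5.14 and 5.05 CPM in controls (0.14 ± 0.31, adjusted p = 0.826). Trib3 had 7.95 and 8.41 CPM in irradiated organoids and 9.86 and 10.2 CPM in controls (-0.30 ± 0.28, adjusted p = 0.557). Eif4ebp1, higher in both irradiated libraries at 25.7 and 30.4 CPM, against 20.3 and 19.9 CPM in controls, missed the threshold (0.48 ± 0.16, adjusted p = 0.0839). Ddit3 had 8.66 and 10.8 CPM in irradiated organoids and 12.4 and 10.7 CPM in controls (-0.25 ± 0.23, adjusted p = 0.539), and its libraries overlapped again.

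All 8 serine and folate enzymes were called lower in irradiated organoids at day 4, with a median log2 fold change of -0.93. The mitochondrial enzyme Aldh1l2, which oxidizes formyl-tetrahydrofolate and yields NADPH, had 3.33 and 3.48 CPM in irradiated organoids, against 29.9 and 30.8 CPM in controls. Its log2 fold change of -3.15 ± 0.17 was the largest on the list in either direction. In the serine synthesis pathway, Phgdh, which oxidizes phosphoglycerate in the first step, had 104 and 72.7 CPM after irradiation, against 153 and 169 CPM in controls (-0.86 ± 0.14). Psat1, the aminotransferase of the next step, had 76.1 and 55.4 CPM after irradiation, against 125 and 155 CPM in controls (-1.09 ± 0.15). Psph, the phosphatase that releases serine, had 7.08 and 6.19 CPM in irradiated organoids and 11.3 and 13.4 CPM in controls (-0.90 ± 0.17). Each of the 3 steps to serine thus had both irradiated libraries below both controls, by similar factors.

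The enzymes that move the serine carbon onto folate were lower at day 4 on both sides of the mitochondrial membrane. Mitochondrial Shmt2 had 53.7 and 41.7 CPM in irradiated organoids, against 87.6 and 97.9 CPM in controls (-0.96 ± 0.12), while cytosolic Shmt1 had 75.1 and 59.2 CPM after irradiation, against 91.4 and 98.4 CPM in controls (-0.50 ± 0.11). Mthfd2, the mitochondrial dehydrogenase and cyclohydrolase of the folate cycle, had 27.5 and 31.4 CPM after irradiation, against 61.2 and 81.2 CPM in controls (-1.28 ± 0.14). Mthfd1l, which releases formate from mitochondria, had 37.4 and 29.3 CPM in irradiated organoids, against 59.9 and 51.8 CPM in controls (-0.74 ± 0.13). No library of one group reached into the range of the other for any of these 4 enzymes.

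At day 7 Aldh1l2 was the 1 enzyme of these 8 that was called: it had 6.42 and 7.45 CPM in irradiated organoids, against 11.3 and 12.5 CPM in controls (-0.78 ± 0.16; edgeR, adjusted p = 0.017). The call was lost without any 1 of the 4 libraries of day 7 (adjusted p from 0.0985 to 0.183) and in DESeq2 (adjusted p = 0.0748; 0.000439 to 0.484 over all alternatives). The 3 serine synthesis enzymes had small positive log2 fold changes that were not called in the fit of all 8 libraries. With the 4 libraries of day 7 alone, Psat1, Phgdh, Shmt1 and Shmt2 were called higher (edgeR, adjusted p = 0.00116, 0.0214, 0.000408 and 5.13e-05). That fit called 18.8% of all genes tested higher and 17.5% lower. The values that follow are from the fit of all 8 libraries. Phgdh had 151 and 155 CPM in irradiated organoids, against 135 and 142 CPM in controls (0.15 ± 0.14, adjusted p = 0.568). Psat1 had 126 and 124 CPM after irradiation, against 108 and 106 CPM in controls (0.22 ± 0.15, adjusted p = 0.389), and Psph had 11.6 and 12.0 CPM after irradiation, against 10.9 and 10.7 CPM in controls (0.12 ± 0.17, adjusted p = 0.695). In each, both irradiated libraries lay above both controls, as they did for 33.3% of all tested genes at day 7. Shmt2 had 116 and 115 CPM in irradiated organoids and 89.1 and 97.1 CPM in controls (0.31 ± 0.11, adjusted p = 0.121), and Shmt1 had 114 and 118 CPM in irradiated organoids and 98.6 and 96.4 CPM in controls (0.25 ± 0.11, adjusted p = 0.169). Mthfd2, at 50.1 and 45.4 CPM in irradiated organoids against 44.4 and 48.8 CPM in controls (0.04 ± 0.14, adjusted p = 0.909), and Mthfd1l, at 44.1 and 47.1 CPM in irradiated organoids against 51.3 and 45.2 CPM in controls (-0.08 ± 0.13, adjusted p = 0.755), had overlapping libraries.

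**Figure D2:**
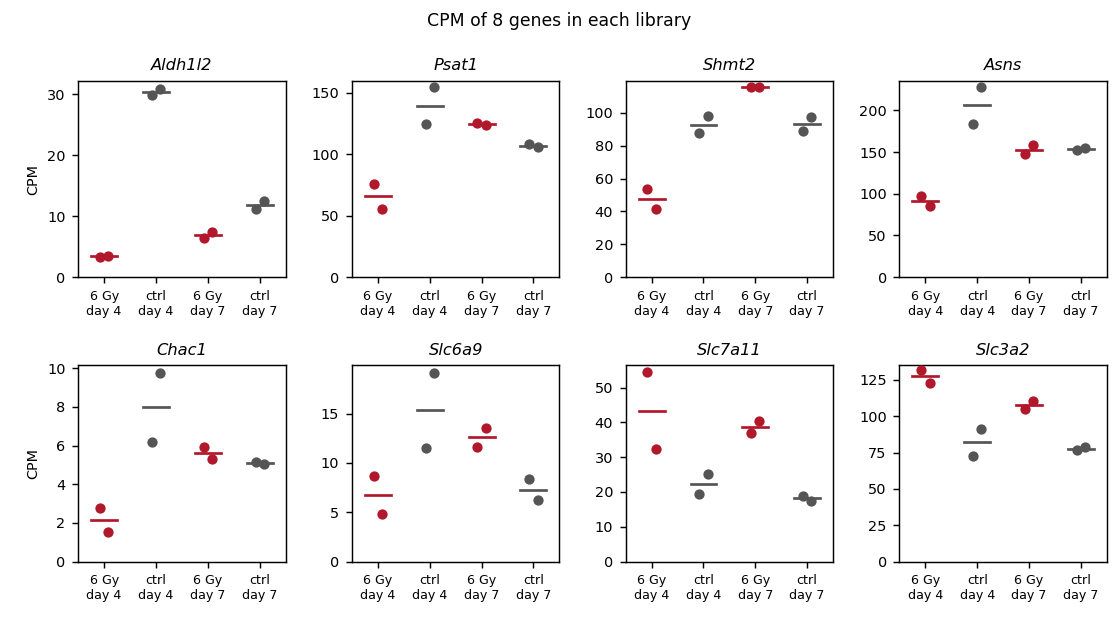
CPM of single genes in each library, irradiated left of control at day 4 and at day 7; points are libraries, and the bar is the mean of the 2. Aldh1l2 stays below the control libraries on both days, the irradiated points of Psat1, Shmt2, Asns, Chac1 and Slc6a9 lie below the controls at day 4 but not at day 7, and Slc7a11 and Slc3a2 lie above the controls on both days.

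Of the 7 other amino acid enzymes, 6 were called lower and 1 higher in irradiated organoids at day 4, with a median of -1.10. Pycr1, which closes proline synthesis in mitochondria, had 4.29 and 4.02 CPM in irradiated organoids, against 12.6 and 16.3 CPM in controls (-1.80 ± 0.20). Aldh18a1, which opens the same pathway, had 200.1 and 231 CPM after irradiation, against 281 and 306 CPM in controls (-0.45 ± 0.09). Both ends of proline synthesis were lower, the last step by more than the first. The mitochondrial alanine aminotransferase Gpt2 had 7.83 and 7.50 CPM after irradiation, against 16.7 and 25.4 CPM in controls (-1.46 ± 0.21). Asns, the asparagine synthetase and a standard Atf4 target, had 97.1 and 85.9 CPM in irradiated organoids and 184 and 228 CPM in controls (-1.17 ± 0.11).

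The route from homocysteine to cysteine was lower at both of its steps at day 4. Cth, the lyase that releases cysteine, had 40.5 and 45.1 CPM in irradiated organoids, against 76.9 and 106 CPM in controls (-1.10 ± 0.14). Cbs, which joins homocysteine to serine, had 11.2 and 5.32 CPM after irradiation, against 17.8 and 13.2 CPM in controls (-0.90 ± 0.29), and its call was lost when any 1 of 6 of the 8 libraries was left out, with log2 fold changes from -0.93 to -0.46. Got1, the cytosolic aspartate aminotransferase, went the other way, with 58.8 and 66.3 CPM in irradiated organoids, against 44.3 and 46.5 CPM in controls (0.46 ± 0.10). At day 7, 0 of the 7 enzymes were called in the edgeR fit of all 8 libraries and 2 had an unadjusted p under 0.05. With the 4 libraries of day 7 alone, edgeR called Aldh18a1 higher and Cbs lower (adjusted p = 0.000179 and 4.71e-08). Of all genes tested, that fit called 18.8% higher and 17.5% lower. The edgeR values of single genes below are from the fit of all 8 libraries. Cbs, at 10.2 and 9.73 CPM in irradiated organoids against 22.1 and 20.1 CPM in controls, came closest (-1.08 ± 0.28, adjusted p = 0.0503) and was the 1 enzyme called in DESeq2 (adjusted p = 0.0151) and in limma-voom (adjusted p = 0.0486; 4.71e-08 to 0.291 over all alternatives). The libraries of Cbs did not overlap on either day. Asns had 148 and 158 CPM in irradiated organoids at day 7, against 152 and 154 CPM in controls (-0.0046 ± 0.11, adjusted p = 0.985). Pycr1 had 7.74 and 8.17 CPM after irradiation, against 7.82 and 8.17 CPM in controls (-0.01 ± 0.20, adjusted p = 0.983), and the libraries of both genes overlapped. Cth had 59.8 and 55.7 CPM in irradiated organoids, against 52.7 and 50.9 CPM in controls (0.16 ± 0.14, adjusted p = 0.535). Aldh18a1 had 364 and 366 CPM after irradiation, against 318 and 317 CPM in controls (0.20 ± 0.09, adjusted p = 0.183), and Got1 had 40.4 and 40.5 CPM after irradiation, against 35.4 and 37.0 CPM in controls (0.16 ± 0.10, adjusted p = 0.37). For these last 3 the irradiated libraries were the higher ones, an order that 33.3% of all tested genes had at day 7.

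The 8 carriers split at day 4, with 6 called lower and 2 higher. Slc7a11, which exchanges cystine for glutamate, had 54.5 and 32.3 CPM in irradiated organoids, against 19.6 and 25.2 CPM in controls (0.95 ± 0.23). Slc3a2, the heavy chain that carries Slc7a11 and other light chains to the cell surface, had 132 and 123 CPM after irradiation, against 72.7 and 91.4 CPM in controls (0.63 ± 0.11). Both were higher in each irradiated library than in each control, although the Slc7a11 call was lost without the first control library of day 4 (log2 fold change 0.76). Slc7a5, the light chain for leucine and other large neutral amino acids, had 26.8 and 19.8 CPM in irradiated organoids, against 39.2 and 45.6 CPM in controls (-0.87 ± 0.14), and so was lower while its heavy chain was higher. The glycine carrier Slc6a9 had 8.69 and 4.78 CPM after irradiation, against 11.6 and 19.2 CPM in controls (-1.20 ± 0.32). That call was lost without the second control or the second irradiated library of day 4 (log2 fold change -0.78 and -0.84).

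Both neutral amino acid exchangers of the Slc1 family were lower at day 4. Slc1a4, which carries serine, alanine and cysteine, had 30.9 and 43.0 CPM in irradiated organoids, against 69.4 and 104 CPM in controls (-1.24 ± 0.21). Slc1a5, known for glutamine uptake, had 21.1 and 24.2 CPM after irradiation, against 39.5 and 61.0 CPM in controls (-1.15 ± 0.19). The arginine and lysine carrier Slc7a1 had 91.6 and 69.2 CPM after irradiation, against 157 and 169 CPM in controls (-1.02 ± 0.12). Slc38a2, a sodium-coupled carrier that responds to amino acid shortage, had 139 and 158 CPM in irradiated organoids, against 249.99 and 282 CPM in controls (-0.84 ± 0.09). None of these 4 carriers had overlapping groups.

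At day 7 the 2 carriers that were higher at day 4 were the 2 of 8 called in the fit of all 8 libraries. With the 4 libraries of day 7 alone, edgeR also called Slc38a2 lower (adjusted p = 1.05e-06). It called Slc6a9 and Slc7a5 higher (adjusted p = 0.000528 and 0.0151). Of all genes tested, that fit called 18.8% higher and 17.5% lower. The values that follow are from the fit of all 8 libraries. Slc7a11 had 37.1 and 40.5 CPM in irradiated organoids, against 19.0 and 17.4 CPM in controls (1.09 ± 0.24; edgeR, adjusted p = 0.0335). Slc3a2 had 105 and 111 CPM after irradiation, against 77.0 and 78.5 CPM in controls (0.47 ± 0.11; adjusted p = 0.0271). Both calls were lost when any 1 library of day 7 was left out, with adjusted p from 0.126 to 0.202 for Slc7a11 and from 0.11 to 0.211 for Slc3a2. Slc7a5 had 50.9 and 52.4 CPM in irradiated organoids at day 7, against 44.0 and 43.5 CPM in controls (0.24 ± 0.14, adjusted p = 0.308), and Slc6a9 had 11.6 and 13.6 CPM after irradiation, against 8.36 and 6.24 CPM in controls (0.79 ± 0.33, adjusted p = 0.171). Slc38a2 had 190.2 and 190.0 CPM after irradiation and 239 and 230.0 CPM in controls (-0.30 ± 0.09, adjusted p = 0.0664), with the irradiated libraries the lower ones on both days. The log2 fold changes of Slc1a4, Slc1a5 and Slc7a1 at day 7 were -0.16, 0.08 and 0.04, with adjusted p-values of 0.698, 0.835 and 0.877.

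The 8 tRNA synthetases, which charge tRNAs with their amino acids, had the smallest shift of the roles, with a median log2 fold change of -0.40 at day 4 and 6 called lower. Iars, for isoleucine, had 208 and 177 CPM in irradiated organoids, against 309.9 and 309 CPM in controls (-0.68 ± 0.09). Nars, for asparagine, had 283 and 276 CPM after irradiation, against 429 and 412 CPM in controls (-0.59 ± 0.08), and Eprs, for glutamate and proline, had 263 and 233 CPM after irradiation, against 336 and 327 CPM in controls (-0.42 ± 0.08). The groups stayed apart in all 3. Tars, Sars and Aars, for threonine, serine and alanine, were lower by less, with log2 fold changes of -0.41 ± 0.09, -0.39 ± 0.09 and -0.35 ± 0.09. The Aars call was lost without the second control library of day 4 (log2 fold change -0.30). With only the day 4 groups in the fit the calls of Sars and Aars were lost, and on the log2(TPM + 1) scale those of Tars and Aars. Gars, for glycine, had 209 and 230.1 CPM in irradiated organoids, against 211 and 219.9 CPM in controls (0.03 ± 0.08), and Wars, for tryptophan, had 85.3 and 70.9 CPM after irradiation, against 70.2 and 75.6 CPM in controls (0.10 ± 0.11). In both, the groups overlapped. At day 7, 0 of the 8 were called by edgeR, DESeq2 or limma-voom with all 8 libraries in the fit, and 1, 0 and 1 had an unadjusted p under 0.05. With the 4 libraries of day 7 alone, edgeR called Aars and Gars higher (adjusted p = 0.000594 and 0.0357) and Eprs lower (adjusted p = 0.00144). That fit called 18.8% of all genes tested higher and 17.5% lower. In the fit of all 8 libraries the synthetase furthest from 0 was Aars, with 166 and 167 CPM in irradiated organoids, against 144 and 145 CPM in controls (0.21 ± 0.09, adjusted p = 0.176), followed by Eprs with 279.7 and 269 CPM after irradiation, against 310.3 and 306 CPM in controls (-0.17 ± 0.08, adjusted p = 0.237). Wars had 68.9 and 79.4 CPM after irradiation and 67.5 and 66.8 CPM in controls (0.14 ± 0.11, adjusted p = 0.464).

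Taking the 40 genes at day 7 as a whole, Slc7a11 and Slc3a2 were called higher, Aldh1l2 and Nupr1 lower, and 36 were not called. Over all tested genes 4.7% were called higher and 3.95% lower, so the 5% of the list in each direction lay near the background. The median log2 fold change of the 40 genes was 0.04, beside 0.00 over all tested genes, and 33 of them lay within 0.35 of 0. Of the 33 genes that were lower at day 4, Aldh1l2 and Nupr1 were also lower at day 7, and the other 31 were not called. A missed threshold does not show that a gene had returned to control level. The count of 4 moved with the libraries in the fit. With the 4 libraries of day 7 alone, both the estimate of spread and the filter on low counts came from those libraries (13041 genes tested). That fit called 4 regulators, 5 serine and folate enzymes, 2 other amino acid enzymes, 5 carriers and 3 synthetases. Of the list, 12 genes were called higher and 7 lower, beside 18.8% and 17.5% of all genes tested. It was 7 without the first control library of day 4, 8 without the first irradiated and 10 without the second irradiated library of day 4, and 0 without any 1 library of day 7, where 6 to 8 had an unadjusted p under 0.05.

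**Figure D3:**
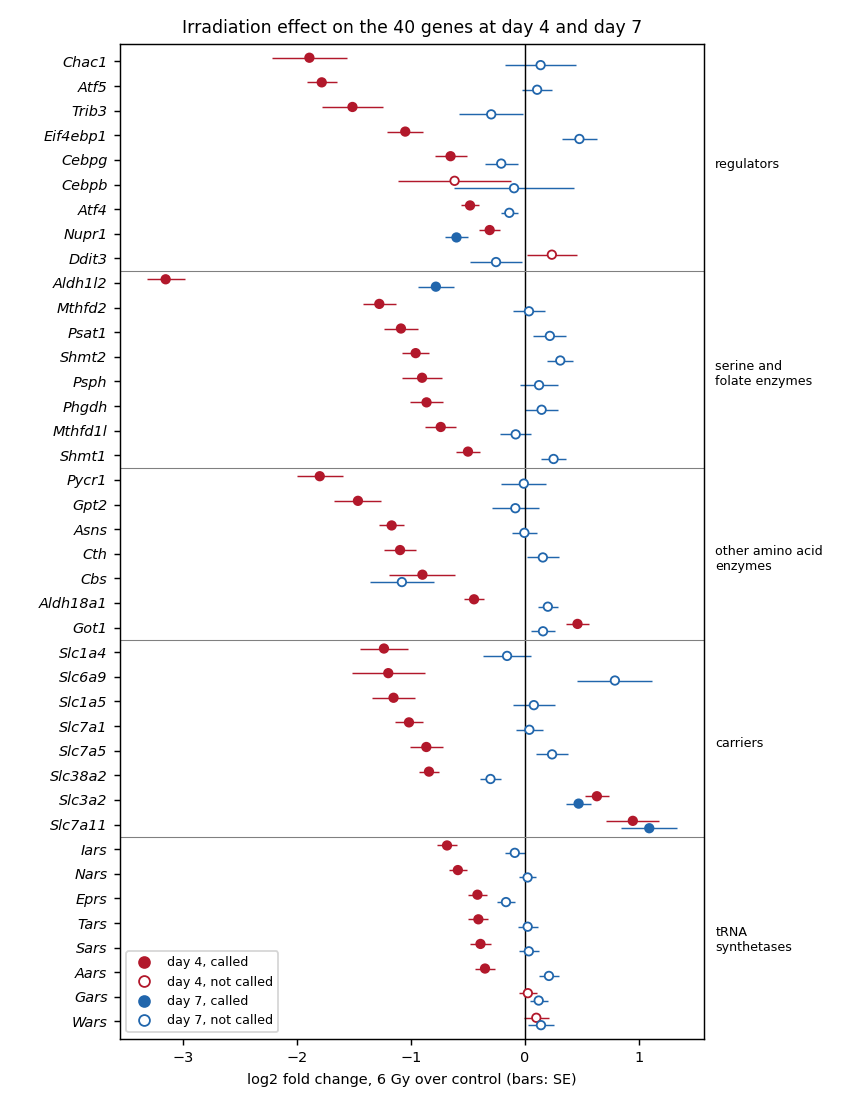
Log2 fold change, irradiated over control, of each of the 40 genes at day 4 and at day 7, with approximate SE bars, grouped by role. At day 4 most points lie left of 0, down to -3.15 for Aldh1l2, and at day 7 33 of the 40 lie within 0.35 of 0.

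The difference between the irradiation effects, day 7 less day 4, was called higher for 23 of the 40 genes, beside 4.6% of all tested genes, with a median of 0.70 beside -0.04 over all tested genes. It uses the day 4 libraries again and is a description. The largest were Aldh1l2 (2.37 ± 0.24), Chac1 (2.03 ± 0.45), Slc6a9 (1.99 ± 0.46), Atf5 (1.89 ± 0.18) and Pycr1 (1.79 ± 0.28). Among the roles it was called for 7 of the 8 serine and folate enzymes, 5 of the 7 other enzymes, 5 of the 8 carriers, 3 of the 9 regulators and 3 of the 8 synthetases. Atf4 was not among them (0.34 ± 0.11). The count fell to 10 without either control library of day 7 and to 11 without either irradiated library of day 7, and 10 of the 23 genes were called in each fit that left out 1 library.

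The change between the days was called for 27 of the 40 genes in irradiated organoids and for 6 in controls. In irradiated organoids 25 of the 40 genes were higher at day 7 than at day 4, and Nupr1 and Got1 were lower, beside 14.7% and 18.3% of all tested genes. The count of 25 was 16 without the first and 18 without the second irradiated library of day 7, and 17 of the 27 calls were made in each fit that left out 1 library. All 8 serine and folate enzymes were among the 25. Shmt2 had a log2 fold change of 1.27 ± 0.12, Aldh1l2 of 1.02 ± 0.19 and Psat1 of 0.92 ± 0.15, while Chac1 had 1.37 ± 0.35, Slc7a5 1.15 ± 0.14 and Atf4 0.24 ± 0.08. In controls, 6 genes, Aldh1l2 (-1.35 ± 0.14), Atf5 (-0.89 ± 0.12), Pycr1 (-0.86 ± 0.18), Cth (-0.82 ± 0.14), Nupr1 (-0.74 ± 0.10) and Mthfd2 (-0.61 ± 0.14), were lower at day 7 than at day 4, beside 1.46% of all tested genes. The controls of day 4 thus held the highest levels of these 6 genes, and they are also the libraries against which the irradiated organoids of day 4 were set. The count of 6 moved with single libraries: it was 17 without either irradiated library of day 4, 14 without the first control library of day 4, 3 without the second or without either irradiated library of day 7, and 1 without either control library of day 7.

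Marker sums of secretory cells moved between the days as well, in both arms. The 8 enteroendocrine markers, of hormone-making cells, summed to 520.2 and 520.6 CPM after irradiation at day 7, against 2575 and 2769 CPM after irradiation at day 4, and to 614 and 611.2 CPM in controls at day 7, against 2512 and 1436 CPM in controls at day 4. The 8 goblet cell markers, of mucus-making cells, summed to 831.6 and 881.2 CPM after irradiation at day 7, against 1795 and 2073 CPM after irradiation at day 4, and to 1236 and 1296 CPM in controls at day 7, against 2224 and 1881 CPM in controls at day 4. Both lists were thus lower at day 7 in every library, irradiated or not. The 7 tuft cell markers, of which 5 were tested, were low throughout and differed most at day 4, with 3.433 and 4.671 CPM after irradiation, against 16.93 and 16.43 CPM in controls. At day 7 they summed to 5.604 and 4.325 CPM after irradiation, against 8.788 and 7.619 CPM in controls. The part of these shifts in the values of the 40 genes was not tested.

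Among neighbouring genes of the same pathways, calls at day 4 went in both directions except among the synthetases, and these lists too were put together with earlier results of these data known. Of 17 genes for the kinases, subunits and phosphatase arms upstream of Atf4, 3 were lower and 3 higher at day 4 (17.6% each way), with a median of -0.06; these shares lay near the 16.5% lower and 20% higher of all tested genes, so the calls are no result about this list. The kinases of heme shortage, Eif2ak1 (0.63 ± 0.10; 67.9 ± 3.97 CPM in irradiated organoids and 43.9 ± 4.64 CPM in controls; SD, n = 2 each), and of endoplasmic reticulum stress, Eif2ak3 (0.81 ± 0.18; 49.9 ± 7.87 CPM in irradiated organoids and 28.7 ± 6.48 CPM in controls), were higher, and the eIF2 subunit gene Eif2s2 was lower (-0.46 ± 0.08). Of 22 tested among 26 further genes described as Atf4 targets, 9 were lower and 5 higher at day 4 (40.9% and 22.7%, median -0.14). Pck2, the mitochondrial enzyme that makes phosphoenolpyruvate, had 32.6 ± 1.24 CPM in irradiated organoids and 78.1 ± 16.4 CPM in controls (-1.26 ± 0.14), and the tRNA exporter Xpot was lower as well (-0.63 ± 0.10). Gpt, the cytosolic alanine aminotransferase, had 54.9 ± 5.76 CPM in irradiated organoids and 6.03 ± 1.19 CPM in controls (3.17 ± 0.16), opposite to its mitochondrial counterpart Gpt2. At day 7, 2 of the 22 were lower and 2 higher (9.09% each way), beside 3.95% lower and 4.7% higher of all tested genes. Gpt (1.68 ± 0.18, edgeR adjusted p = 0.000846) and the endoplasmic reticulum gene Herpud1 (0.69 ± 0.11, adjusted p = 0.00587) were higher, and Vldlr, a lipoprotein receptor (-1.68 ± 0.25, adjusted p = 0.00955), and Stc2 were lower.

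The rest of the folate and methionine cycles held genes called in both directions. Of 27 tested among 32 genes, 9 were lower and 2 higher at day 4 (33.3% and 7.41%, median -0.04), beside 16.5% and 20% of all tested genes. Ahcy, which clears S-adenosylhomocysteine, had 191 ± 24.6 CPM in irradiated organoids and 289 ± 19.9 CPM in controls (-0.60 ± 0.10), and the purine enzyme Pfas was lower too (-0.54 ± 0.09). The intestinal folate carrier Slc46a1 was higher, with 35.8 ± 13.8 CPM in irradiated organoids and 4.61 ± 0.331 CPM in controls (2.96 ± 0.30). Sfxn1, the mitochondrial serine carrier, was the 1 gene of the 27 called at day 7, with 129 ± 4.40 CPM in irradiated organoids and 103 ± 4.00 CPM in controls (0.33 ± 0.09, adjusted p = 0.0417). That is 3.7% called higher, near the 4.7% of all tested genes. Of 15 other cytosolic synthetase genes and cofactors 4 were lower at day 4 (26.7%, median -0.21), among them Mars (-0.73 ± 0.09), Yars (-0.78 ± 0.10) and Cars (-0.84 ± 0.13). Of 17 mitochondrial synthetases 5 were lower (29.4%, median -0.32), among them Iars2 (-0.44 ± 0.09), Mars2 (-0.49 ± 0.12) and Nars2 (-0.43 ± 0.13). Over all tested genes 16.5% were called lower at day 4, and with so few genes both synthetase shares are a description only.

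Other epithelial amino acid carriers were mostly called higher. Of 15 tested among 18, 10 were higher and 3 lower at day 4 (66.7% and 20%, median 1.01). Over all tested genes 20% were called higher and 16.5% lower at day 4, so the share called lower lay near the background. At day 7, 5 were higher and 1 lower (33.3% and 6.67%), beside 4.7% and 3.95% of all tested genes. Slc6a19, the main neutral amino acid carrier of the enterocyte brush border, had 111 ± 23.1 CPM in irradiated organoids and 13.2 ± 3.06 CPM in controls at day 4 (3.08 ± 0.20). The peptide carrier Slc15a1 had 17.2 ± 1.61 CPM in irradiated organoids and 2.79 ± 0.464 CPM in controls at day 7 (2.61 ± 0.39, adjusted p = 0.0101), and the arginine carrier Slc7a2 was lower (-2.01 ± 0.34, adjusted p = 0.00799). Several are themselves enterocyte genes, whose marker sum moved the same way. The part of that marker shift in the carrier values was not tested. The light chains that pair with Slc3a2 were read together after their values were seen: at day 4 Slc7a11, Slc7a7 (1.27 ± 0.10) and Slc7a8 (1.00 ± 0.12), of which the last 2 sit in the basolateral membrane, were higher with their heavy chain, and Slc7a5 and Slc7a6 (-0.37 ± 0.12) were lower.

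**Figure D4:**
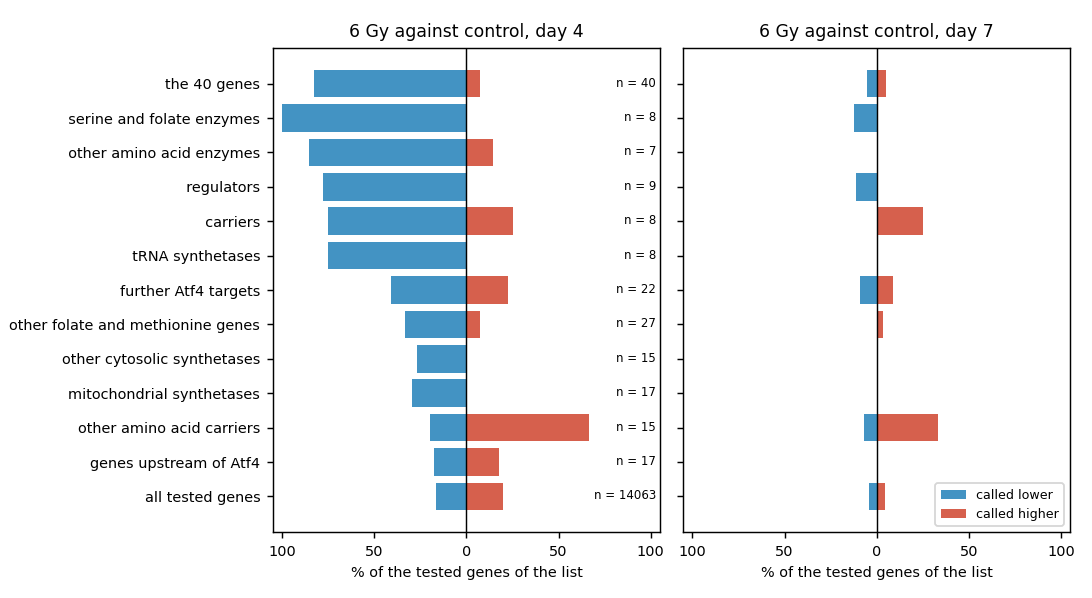
Share of tested genes called lower or higher in irradiated organoids, for the 40 genes, their 5 role groups, the neighbouring lists and all tested genes, at day 4 and at day 7. At day 4 82.5% of the 40 genes are called lower and 66.7% of the other amino acid carriers higher, beside 16.5% and 20% of all tested genes.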

How the data were processed

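Poly-A selected RNA of 8 libraries was sequenced with a strand-marking kit, per the labels. The authors deposited expected counts per gene, which share reads between genes and need not be whole, and TPM per gene, per the file headers. FastQC, Trim Galore, STAR 2.7.3a, RSEM 1.3.3 and the builds GRCm39 and mm10 are named, per the submitters' processing notes; for the annotation release and strand setting, not given in the sources used here, antisense reads may be mixed into a gene's counts. Symbols came from GENCODE M21 names by exact gene ID, for 52083 of 55416 IDs. For 27 of the 40 genes the deposited expected counts were whole in all libraries (within 0.001); for the others reads were shared with other genes.

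Expected counts were rounded, which changed 11.45% of values, and filtered with filterByExpr (minimum count 10, minimum total 15). TMM scaling and 1 edgeR 4.0.16 quasi-likelihood fit (R 4.3.3) of 4 group means over the 8 libraries, with 4 residual degrees of freedom, gave two-sided p-values, adjusted by Benjamini-Hochberg over 14063 genes and called under 0.05. Precision is limited by 2 libraries per group. Alternatives used DESeq2 1.42.0, limma 3.58.1, other scalings and filters, and left out each library. Libraries of a group differed by more than counting noise, so none was taken as a repeat of another. The members and lists were chosen with earlier results of these data known. Library values were given for a fixed set of members and for the 3 largest fold changes per role and irradiation comparison, and up to 3 genes per neighbouring list by smallest p; other genes were added after their values were seen where the text says so, and Stc2 completes a count. Promoter sequences are from RefSeq (GRCm38.p6), which may not be the build of the counts.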

Additional observations from a re-analysis of the deposited data

Results flagged for a closer look

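The irradiation effect of 23 of the 40 genes differed between the days by the edgeR test of the difference itself, and in each the log2 effect at day 7 was higher than that at day 4. The test reuses the day 4 libraries that were in view when the list was made, so these values are a description. Among the serine and folate enzymes the differences were 2.37 for Aldh1l2, 1.31 for Mthfd2, 1.31 for Psat1, 1.27 for Shmt2, 1.03 for Psph, 1.01 for Phgdh and 0.75 for Shmt1. The other enzymes had differences of 1.79 for Pycr1, 1.38 for Gpt2, 1.25 for Cth, 1.16 for Asns and 0.65 for Aldh18a1. Carriers had 1.99 for Slc6a9, 1.23 for Slc1a5, 1.10 for Slc7a5, 1.06 for Slc7a1 and 0.54 for Slc38a2. Regulators had 2.03 for Chac1, 1.89 for Atf5 and 1.53 for Eif4ebp1, and synthetases had 0.61 for Nars, 0.59 for Iars and 0.56 for Aars.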

How the results depend on the processing

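No called gene reversed its direction under the 10 alternatives or the 8 fits that left out 1 library. At day 4 26 of the 36 called genes were called in all 10 alternatives and 31 in all 8 fits; at day 7 each of the 4 calls was lost in at least 1 alternative and in each fit without a library of day 7. Counts and median log2 fold changes are of the 40 genes. Without a filter on low counts, the count was 8 for irradiation at day 7 (5 higher, 3 lower) with a median of 0.090, the medians were 0.80 for the difference between days and 0.52 for day 7 against day 4 in irradiated organoids, and 18 genes were called between days in controls. On log2(TPM + 1) and log2(TPM + 0.1), which shifted the median of all genes by -0.17 and -0.20 at day 4, by 0.12 and 0.13 at day 7, and by 0.30 and 0.34 between days in irradiated organoids, limma gave 0 calls at day 7 on both (4 and 5 at an unadjusted p under 0.05), 0 in controls between days and 12 for the difference. The medians were -1.04 and -1.10 at day 4, 0.14 and 0.14 at day 7, 1.10 and 1.13 for the difference, and 0.74 and 0.88 between days in irradiated organoids. With only the groups compared in the fit, 19 genes were called at day 7 and 30 at day 4 (28 lower, 2 higher). Of all genes tested, that day 4 fit called 9.76% lower and 13.6% higher. The day 4 calls of Cbs, Slc7a11, Slc6a9, Nupr1, Aars and Sars were lost in it. The cause of these changes was not tested.

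Leaving out each library in turn gave 0 to 10 calls at day 7, 10 to 27 for the difference and 1 to 17 between days in controls. The medians ran from -0.97 to -0.73 at day 4, from 0.026 to 0.10 at day 7, from 0.73 to 0.89 for the difference, from 0.45 to 0.59 between days in irradiated organoids and from -0.41 to -0.23 in controls. A group left with 1 library was assumed to vary like the others. Cebpb had the lowest counts, from 11.54, and an SE of 0.49 at day 4; the part of depth in that SE was not tested.

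With the replicate number as a replicate block, 36 genes were called at day 4, 4 at day 7 (1 higher, 3 lower), 26 for the difference, and 27 and 9 between days in irradiated organoids and in controls. The labels do not tie the numbers to a shared culture. The deviations of same-numbered libraries correlated by -0.04 to 0.06, which cannot exclude a shared culture or batch.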
